A study of Mus musculus with 2 samples.

Results

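Immediate-early activation genes were followed in sorted mouse bone marrow cells through 9 members: Fos, Fosb, Jun, Junb, Egr1, Nr4a1, Dusp1, Ier2 and Cd69. They were taken by gene symbol from the 32285 genes of the count tables, and each symbol matched 1 gene. The set was chosen with earlier results of these data known. The study made 2 droplet-based single-cell 3' RNA libraries, 1 from Irf4-/- mice and 1 from wild-type (WT) C57BL/6 mice. Irf4 encodes a transcription factor that antigen receptors induce and that plasma cells need, and the comparison asks how its loss alters cells sorted as natural killer progenitors (NKP). Both libraries came from bone marrow and from the same gate, which kept cells with CD122 on their surface and without NK1.1, Ncr1, c-kit, Sca-1 or lineage markers. The Irf4 allele, the strain background of the Irf4-/- mice, the ages of the mice and the number of mice pooled per library are not given in the sources used here. Nuclei are named at loading in the labels' protocol although cells were sorted, so whether the levels are of whole cells or of nuclei is not settled here. With 1 library per genotype no test between genotypes can be made. Intervals below, other than those of medians, are 95% intervals that cover counting error only. They treat UMIs (unique molecular identifiers, 1 per captured transcript) as independent.

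Immediate-early genes are transcribed within minutes of a stimulus, without new protein synthesis, and their transcripts decay fast. Fos, Fosb, Jun and Junb encode subunits of the AP-1 transcription factor, Egr1 a zinc-finger factor induced through the ERK pathway, and Nr4a1 a nuclear receptor that follows antigen receptor signals in T and B cells. Dusp1 encodes a phosphatase that inactivates MAP kinases, Ier2 a nuclear protein, and Cd69 a membrane lectin that appears early on activated lymphocytes and holds them in tissue. Enzymatic or mechanical handling of tissue can also induce these genes in isolated cells.

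After filtering, 7955 of 8147 barcodes were kept in the library labelled Irf4-/-, at a median depth of 9540 UMIs, and 12367 of 12732 in that labelled WT, at 7125 UMIs. Total depth was 82599767 UMIs under the Irf4-/- label, as the library so labelled is also called here, and 95031071 UMIs under the WT label, and 27 barcodes occurred in both libraries. The sorted cells were not mainly natural killer progenitors by their RNA: T cells, defined by CD3 genes, made up 82.6% of kept cells under the Irf4-/- label and 88.9% under the WT label. Ncr1, a defining natural killer gene whose protein the gate excluded, was at 0.791 counts per 1000000 UMIs (CPM) under the Irf4-/- label and 0.201 CPM under the WT label. The level of Irf4 itself went against the labels. Over all kept cells its level was 9.77 CPM in the library labelled Irf4-/- against 3.04 CPM in that labelled WT, and in B-lineage cells 85.3 CPM under the Irf4-/- label against 41.7 CPM under the WT label. A 3' library counts transcript ends and need not test the deleted part of the gene; a retained end and exchanged labels, which would turn every direction, cannot be told apart by Irf4. Jchain, which encodes the joining chain of secreted antibody and is high in plasma cells, had 0.170 CPM under the Irf4-/- label and 104 CPM under the WT label in B-lineage cells. Together with Sdc1 and Xbp1, also listed as plasma cell genes, the sum was 56.7 CPM under the Irf4-/- label and 171 CPM under the WT label. How many cells held the Jchain UMIs was not counted, so no check of the labels is read from it. Every direction given here is between libraries as labelled.

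Cells were classed by transcripts. Cd8b1-positive cells are T cells with a UMI of Cd8b1, a CD8 coreceptor chain, and none of Klre1, a lectin-like receptor of natural killer and some T cells. Klre1-positive cells are the converse, gamma-delta T cells have more Trdc than Trac UMIs, and B-lineage cells have the antigen receptor chains Cd79a and Cd79b without CD3 genes. Under the Irf4-/- label the Cd8b1-positive class held 1584 cells, the Klre1-positive class 1691, the gamma-delta class 764 and the B-lineage class 1039. Under the WT label they held 5430, 943, 1260 and 905 cells. T cells with both transcripts (1171 cells under the Irf4-/- label, 1035 under the WT label) and with neither (1363 under the Irf4-/- label, 2331 under the WT label) are used only where named. The B-lineage classes contained B-lineage markers at 10082 CPM under the Irf4-/- label and 10378 CPM under the WT label, and CD3 genes at 8.49 CPM under the Irf4-/- label and 17.4 CPM under the WT label. Cd79a and Cd79b, which are among these markers, and the CD3 genes defined the class, so these sums do not measure its purity.

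The upstream sequences of the genes on which the results turn are shown from RefSeq, build GRCm38.p6, with 250 bases before and 50 after the annotated start, 5' to 3' on the gene's strand. Fos and Fosb are shown because both were higher, and Jun because it was lower, in B-lineage cells of the library labelled Irf4-/-. Nr4a1 is shown for its joint detection with Egr1, and Dusp1 because it was higher in T cells of the same library. Capitals mark TGACG on either strand (CGTCA when reversed), the core of the cyclic AMP response element, its full palindrome TGACGTCA, the related TGACATCA, and TATAAA on the gene's strand.
Fos: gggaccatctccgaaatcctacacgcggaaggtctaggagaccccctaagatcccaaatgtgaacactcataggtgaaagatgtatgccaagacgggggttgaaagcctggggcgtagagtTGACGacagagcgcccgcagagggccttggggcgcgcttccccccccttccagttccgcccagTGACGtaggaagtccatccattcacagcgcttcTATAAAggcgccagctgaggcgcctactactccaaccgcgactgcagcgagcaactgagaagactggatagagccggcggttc
Fosb: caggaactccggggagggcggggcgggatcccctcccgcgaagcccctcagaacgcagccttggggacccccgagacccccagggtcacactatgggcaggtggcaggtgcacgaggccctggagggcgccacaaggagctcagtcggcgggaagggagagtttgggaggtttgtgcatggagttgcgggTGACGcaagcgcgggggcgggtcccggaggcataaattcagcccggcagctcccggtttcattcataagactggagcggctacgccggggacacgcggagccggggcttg
Jun: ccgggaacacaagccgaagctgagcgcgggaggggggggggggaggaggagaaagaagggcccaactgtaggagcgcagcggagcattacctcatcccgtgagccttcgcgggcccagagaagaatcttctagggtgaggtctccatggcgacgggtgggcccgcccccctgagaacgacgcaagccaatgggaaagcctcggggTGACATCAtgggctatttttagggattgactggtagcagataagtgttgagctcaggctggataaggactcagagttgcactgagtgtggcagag
Nr4a1: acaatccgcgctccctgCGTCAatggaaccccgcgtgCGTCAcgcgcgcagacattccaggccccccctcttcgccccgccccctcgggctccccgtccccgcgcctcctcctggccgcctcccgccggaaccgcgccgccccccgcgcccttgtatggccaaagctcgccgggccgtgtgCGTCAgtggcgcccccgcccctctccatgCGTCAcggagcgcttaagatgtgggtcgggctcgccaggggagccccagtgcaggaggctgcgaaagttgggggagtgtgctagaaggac
Dusp1: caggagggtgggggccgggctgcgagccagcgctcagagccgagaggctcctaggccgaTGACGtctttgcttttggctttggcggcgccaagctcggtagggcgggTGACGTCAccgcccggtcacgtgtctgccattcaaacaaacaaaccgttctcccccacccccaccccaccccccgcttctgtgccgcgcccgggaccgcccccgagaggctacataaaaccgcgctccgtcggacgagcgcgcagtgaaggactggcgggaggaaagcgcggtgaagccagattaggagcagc
These windows lie at chr12:85473640-85473939 (plus strand), chr7:19309996-19310295, chr4:95052173-95052472 and chr17:26508423-26508722 (minus strand) and chr15:101266596-101266895 (plus strand). Those of Nr4a1 and Dusp1 are at RefSeq starts that lie inside the GENCODE spans given below for these genes, away from the upstream ends of those spans. TGACG was present in 5 of the 6 members with a window (Dusp1, Fos, Fosb, Junb and Nr4a1), against 20.8% of 32851 windows of the same length. The full TGACGTCA, which contains TGACG on both strands, was found in Dusp1 alone among the 6 and in 1.79% of all windows. TGACATCA occurred in Jun alone among the 6 and in 3.62% of all windows. GGGCGG, the core of a GC box, was found on either strand in 5 of the 6 (not Junb) and in 35.7% of windows, and TATAAA in Fos and Junb and in 8.32%. The AP-1 site TGANTCA and the CArG box, searched on both strands, occurred in 7.81% and 1.63% of windows and in none of the 6. Matches of letters are descriptions and not sites in use. Ier2, Cd69 and Egr1 are named without a window.

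For Fos, Fosb and Jun the B-lineage cells stood further from Cd8b1-positive cells than the libraries stood from each other. Fos, a dimer-forming AP-1 subunit whose gene lies at chr12:85473890-85477273 (GRCm38, plus strand), had 71.3 CPM in B-lineage cells of the library labelled Irf4-/- and 50.1 CPM in those of the library labelled WT. In T cells it lay between 17.5 and 19.8 CPM in the library labelled Irf4-/-, and between 16.4 and 22.2 CPM in the library labelled WT, over the Cd8b1-positive, Klre1-positive and gamma-delta classes. B-lineage cells were highest, over Cd8b1-positive cells by log2 1.90 (1.70 to 2.11) under the Irf4-/- label and 1.61 (1.36 to 1.85) under the WT label. Under the Irf4-/- label the order of the 3 T cell classes was within counting error, and under the WT label the lowest, Cd8b1-positive, was below Klre1-positive cells by more than it (Klre1-positive over Cd8b1-positive log2 0.29, 0.02 to 0.55). Fosb, the close paralog of Fos at chr7:19302696-19310051 (minus strand), also had its highest level in B-lineage cells, with 114.5 CPM under the Irf4-/- label and 72.7 CPM under the WT label. Its difference from Cd8b1-positive cells was log2 2.45 (2.27 to 2.63) under the Irf4-/- label and 1.67 (1.46 to 1.87) under the WT label.

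Jun and Junb, the Jun-type partners, did not share an order. Jun (chr4:95049034-95052222, minus strand) had 108 CPM in B-lineage, 92.8 CPM in Klre1-positive and 53.6 CPM in Cd8b1-positive cells under the Irf4-/- label. The corresponding levels were 155 CPM in B-lineage, 79.4 CPM in Klre1-positive and 63.1 CPM in Cd8b1-positive cells under the WT label. B-lineage cells were thus the highest class and Cd8b1-positive cells the lowest in both libraries. Klre1-positive cells were above Cd8b1-positive cells by log2 0.79 (0.68 to 0.91) under the Irf4-/- label and 0.33 (0.20 to 0.46) under the WT label. Junb (chr8:84974484-84978718, minus strand) was instead highest in Klre1-positive cells, at 207 CPM under the Irf4-/- label, within counting error of gamma-delta T cells, and 194 CPM under the WT label. Cd8b1-positive cells were lowest, at 149 CPM under the Irf4-/- label, where B-lineage cells at 155 CPM were within counting error of them, and at 130 CPM under the WT label. Klre1-positive cells exceeded Cd8b1-positive cells for Junb by log2 0.48 (0.40 to 0.55) under the Irf4-/- label and 0.57 (0.48 to 0.66) under the WT label. Prdx2 overlaps Junb, and the noncoding Junos overlaps Jun, on the opposite strand.

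Egr1 and Nr4a1, both induced by antigen receptor signals, were lowest in Klre1-positive cells of the 4 classes, under the WT label within counting error of Cd8b1-positive cells. Egr1 had 30.1 CPM in B-lineage, 16.0 CPM in gamma-delta T, 13.2 CPM in Cd8b1-positive and 8.33 CPM in Klre1-positive cells under the Irf4-/- label. Under the WT label it had 41.4 CPM in B-lineage, 15.5 CPM in gamma-delta T, 8.14 CPM in Cd8b1-positive and 6.40 CPM in Klre1-positive cells. The order was the same in both, and its last step, Klre1-positive over Cd8b1-positive, was log2 -0.66 (-0.97 to -0.37) under the Irf4-/- label and -0.35 (-0.83 to 0.10) under the WT label. Nr4a1 (chr15:101254269-101274795, plus strand) was rare. Under the Irf4-/- label it had 7.30 CPM in gamma-delta T, 6.62 CPM in B-lineage, 3.95 CPM in Cd8b1-positive and 1.83 CPM in Klre1-positive cells. Under the WT label it had 5.82 CPM in gamma-delta T, 2.32 CPM in B-lineage, 1.87 CPM in Cd8b1-positive and 1.42 CPM in Klre1-positive cells. Gamma-delta T cells exceeded Cd8b1-positive cells for Nr4a1 by log2 0.89 (0.34 to 1.42) under the Irf4-/- label and 1.64 (1.10 to 2.17) under the WT label, while gamma-delta T and B-lineage cells were within counting error of each other under the Irf4-/- label. Few gamma-delta T cells carried this level, which the intervals do not cover. Under the Irf4-/- label 1 cell had 22 of the 52 Nr4a1 UMIs, and under the WT label 1 cell had 14 of 48. The 10 highest cells held 75.0% under the Irf4-/- label and 64.6% under the WT label.

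Cd69 and Dusp1 were lowest in B-lineage cells of the 4 classes in both libraries, and Ier2 in 1 library. Cd69 (chr6:129267325-129275436, minus strand) had 113 CPM in B-lineage, 164 CPM in Cd8b1-positive and 201 CPM in Klre1-positive cells under the Irf4-/- label. Under the WT label it had 108 CPM in B-lineage, 150 CPM in Cd8b1-positive and 205 CPM in Klre1-positive cells. Klre1-positive over Cd8b1-positive gave log2 0.30 under the Irf4-/- label and 0.45 under the WT label, and B-lineage over Cd8b1-positive gave -0.53 under the Irf4-/- label and -0.48 under the WT label, each beyond counting error. Dusp1 (chr17:26505590-26562128, minus strand, overlapped by Ergic1 on the other strand) had 4.76 CPM in B-lineage cells and between 9.75 and 13.4 CPM in the 3 T cell classes under the Irf4-/- label. It had 4.64 CPM in B-lineage cells and between 7.24 and 8.82 CPM in those T cell classes under the WT label, where B-lineage over Cd8b1-positive cells was within counting error (log2 -0.64, -1.47 to 0.08). Ier2 (chr8:84661331-84662852, minus strand) had no common order. B-lineage cells were the lowest class for Ier2 at 66.7 CPM under the Irf4-/- label, and stood at 115 CPM under the WT label, beside 112 CPM in gamma-delta T and 111 CPM in Klre1-positive cells of that library. Against Cd8b1-positive cells the B-lineage difference for Ier2 was log2 -0.40 (-0.56 to -0.24) under the Irf4-/- label and 0.32 (0.17 to 0.47) under the WT label.

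**Figure D1:**
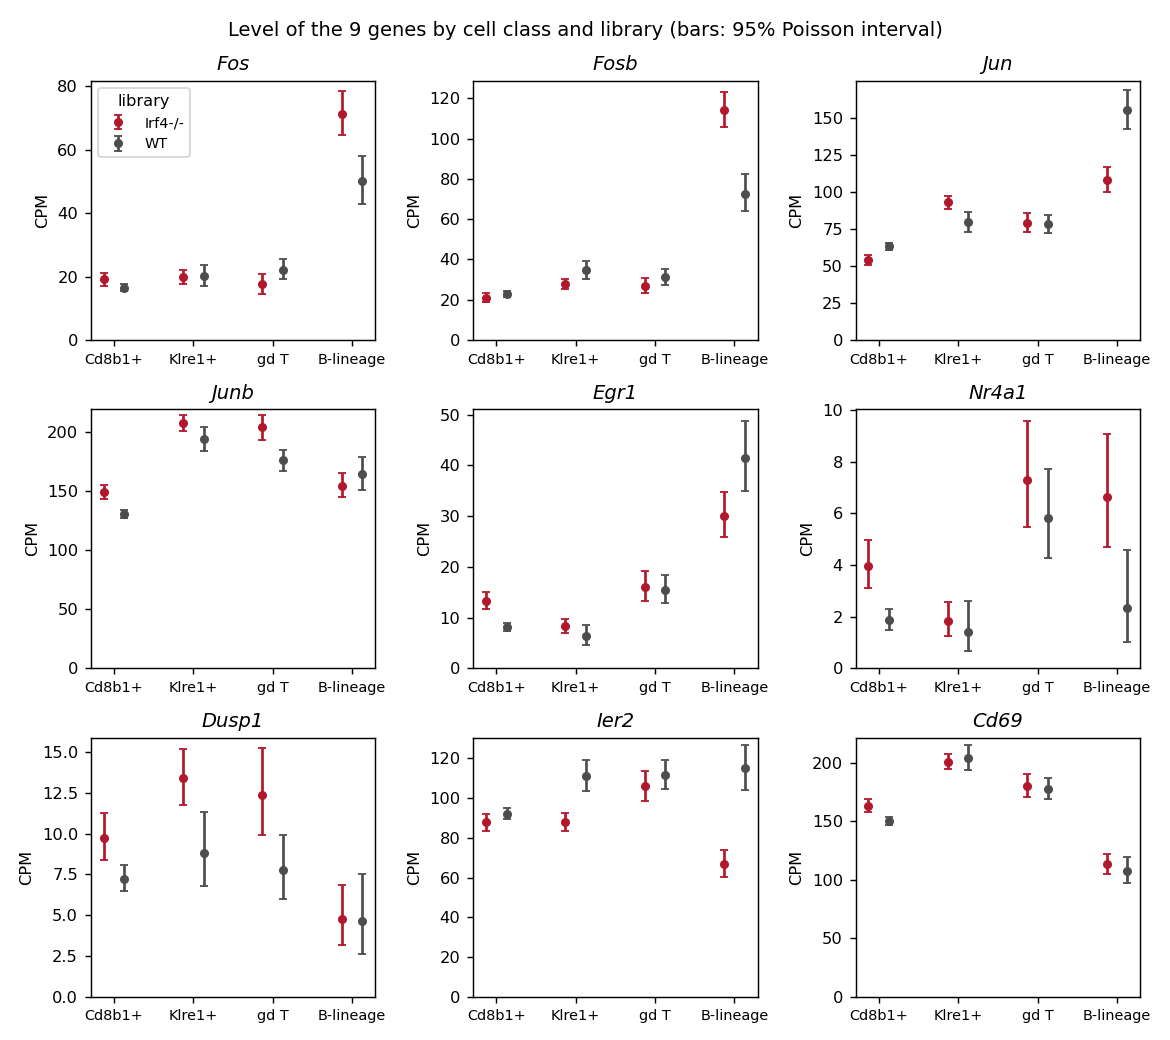
CPM of each of the 9 genes (vertical axes, from 0) in Cd8b1-positive, Klre1-positive, gamma-delta T (gd T) and B-lineage cells, with the library labelled Irf4-/- in red at the left and the library labelled WT in grey at the right of each pair; bars are 95% Poisson intervals. Fos and Fosb stand apart in B-lineage cells (Fosb at 114.5 CPM under the Irf4-/- label and 72.7 CPM under the WT label), while Cd69 is lowest there (113 CPM under the Irf4-/- label and 108 CPM under the WT label).

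Shares of cells in which a gene was detected were compared at equal depth. Each cell was reduced at random to 2000 UMIs, without the cells of lower depth (35 under the Irf4-/- label, 71 under the WT label), because full depth differed between libraries and classes. Median full depth in Cd8b1-positive cells was 10906 UMIs under the Irf4-/- label and 7806 UMIs under the WT label, and in B-lineage cells 4155 UMIs under the Irf4-/- label and 2972 UMIs under the WT label. Cd69 was detected in 28.4% of Klre1-positive, 25.5% of Cd8b1-positive and 19.2% of B-lineage cells under the Irf4-/- label. It was detected in 30.6% of Klre1-positive, 23.3% of Cd8b1-positive and 18.3% of B-lineage cells under the WT label. Fosb was detected in 19.6% of B-lineage and 3.79% of Cd8b1-positive cells under the Irf4-/- label, and in 11.8% of B-lineage and 4.04% of Cd8b1-positive cells under the WT label. Both orders, Cd69 lowest and Fosb highest in B-lineage cells, are thus seen at equal depth. Fos was detected in 13.8% of B-lineage and 2.84% of Cd8b1-positive cells under the Irf4-/- label, and in 9.20% of B-lineage and 2.99% of Cd8b1-positive cells under the WT label. At full depth the share for Fosb in B-lineage cells was 34.9% under the Irf4-/- label and 19.6% under the WT label, and in Cd8b1-positive cells 17.6% under the Irf4-/- label and 13.9% under the WT label. The T cell receptor gene Trac was found in 1.17% of thinned B-lineage and 61.0% of Cd8b1-positive cells under the Irf4-/- label, and in 1.03% of B-lineage and 61.4% of Cd8b1-positive cells under the WT label. Cells with more than 1 CD3 UMI were kept out of the B-lineage class by definition, so this share does not show how much free RNA there was. Detection did not follow the level for every gene. Egr1 was detected in 4.30% of B-lineage cells under the Irf4-/- label and 4.25% under the WT label, although its level there was 30.1 CPM under the Irf4-/- label and 41.4 CPM under the WT label. Under the WT label Egr1 was found in 1.38% of Klre1-positive and 1.29% of Cd8b1-positive cells, and Dusp1 in 1.38% of Klre1-positive and 1.44% of Cd8b1-positive cells, both against the order of the levels, so no order is read from these shares. Nr4a1 was at or below 1.08% in each of the 4 classes, close to or below that Trac share in B-lineage cells, so no difference is read from its shares.

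Between the libraries, Egr1 and Nr4a1 had the largest ratios of the 9 genes in Cd8b1-positive cells, and a few cells carried them. Egr1 had 244 UMIs (13.2 CPM) in the library labelled Irf4-/- and 370 UMIs (8.14 CPM) in the library labelled WT, a log2 ratio of 0.70 (0.46 to 0.94). Nr4a1 had 73 UMIs (3.95 CPM) under the Irf4-/- label and 85 UMIs (1.87 CPM) under the WT label, a log2 ratio of 1.08 (0.61 to 1.55). These were the 2 of the 9 genes with a log2 ratio of at least 0.5, where 6.91% of 12063 genes with at least 20 UMIs had one, and 0 of the 9 were at or below -0.5, against 6.05% of genes. The median log2 ratio of the 9 was 0.19, beside -0.0077 over all genes. The 10 cells with most Egr1 UMIs held 53.7% of its UMIs in the library labelled Irf4-/- and 22.7% in the library labelled WT, and for Nr4a1 the shares were 76.7% under the Irf4-/- label and 45.9% under the WT label. In the library labelled Irf4-/- 1 cell had 53 Egr1 UMIs and 1 had 26 Nr4a1 UMIs. Without the highest cell of each library the log2 ratios were 0.44 (0.17 to 0.70) for Egr1 and 0.61 (0.05 to 1.15) for Nr4a1, and without the deepest 5% of cells 0.39 (0.12 to 0.66) for Egr1 and 0.36 (-0.21 to 0.92) for Nr4a1, the last within counting error.

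With all cells, the other 7 genes differed less in Cd8b1-positive cells. Junb, at 149 CPM under the Irf4-/- label and 130 CPM under the WT label, gave a log2 ratio of 0.19 (0.13 to 0.26). Cd69 gave 0.12 (0.06 to 0.19), and Dusp1, at 9.75 CPM under the Irf4-/- label and 7.24 CPM under the WT label, gave 0.43 (0.16 to 0.70). Without the deepest 5% of cells Dusp1 was at 0.40 (0.11 to 0.70), so that it no longer stood below Egr1 and Nr4a1. Jun was lower in the library labelled Irf4-/-, at 53.6 CPM against 63.1 CPM under the WT label and log2 -0.23 (-0.34 to -0.13). At 2000 UMIs per cell, however, it was detected in 10.55% of cells under the Irf4-/- label and 10.60% under the WT label. With the Cd8b1-positive class widened to cells that also had Klre1, the ratio of Jun was -0.07 (-0.15 to 0.0032), within counting error. With Ccr7, a homing receptor of naive and central memory T cells, detected (740 cells under the Irf4-/- label, 2415 under the WT label), the log2 ratio was 1.16 (0.80 to 1.51) for Egr1 and 1.77 (1.08 to 2.47) for Nr4a1. Without Ccr7 (844 cells under the Irf4-/- label, 3015 under the WT label) it was 0.33 (-0.01 to 0.66) for Egr1 and 0.38 (-0.34 to 1.08) for Nr4a1. Without the highest cell of each library, the values with Ccr7 were 0.48 (0.06 to 0.90) for Egr1 and 0.87 (-0.05 to 1.77) for Nr4a1. At 2000 UMIs per cell Egr1 was detected in 1.35% of the cells with Ccr7 under the Irf4-/- label and 1.16% under the WT label. This split was chosen after values were seen, and the difference between its sides was not tested. In Cd8b1-positive cells the 4 haemoglobin genes summed to 266 CPM under the Irf4-/- label and 595 CPM under the WT label, and the 3 basophil and mast cell genes to 0.379 CPM under the Irf4-/- label, with Cpa3 at 0, and 24.5 CPM under the WT label. Without the cells with at least 3 UMIs of erythroid, myeloid, basophil or mast cell genes the ratios were 0.69 for Egr1 and 1.02 for Nr4a1. Mitochondrial UMIs were 3.87% of the total under the Irf4-/- label and 3.50% under the WT label, and heat shock genes had 4011 CPM under the Irf4-/- label and 3967 CPM under the WT label; the part of these 2 in the results was not tested.

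In Klre1-positive cells Dusp1 was the 1 gene of the 9 at or above log2 0.5, beside 7.04% of genes, and none was at or below -0.5, beside 5.29%. It had 13.4 CPM in the library labelled Irf4-/- and 8.82 CPM in the library labelled WT, a log2 ratio of 0.60 (0.19 to 1.03). Jun was higher in the library labelled Irf4-/-, at 92.8 CPM against 79.4 CPM under the WT label and log2 0.23 (0.09 to 0.37), opposite in sign to Cd8b1-positive cells in classes without shared cells. Ier2 was lower, at 88.0 CPM against 111 CPM under the WT label and log2 -0.34 (-0.46 to -0.21), and so was Fosb, at 27.7 CPM against 34.7 CPM under the WT label and log2 -0.33 (-0.55 to -0.10). Fos (19.8 CPM under the Irf4-/- label, 20.1 CPM under the WT label) and Cd69 (201 CPM under the Irf4-/- label, 205 CPM under the WT label) differed by less than counting error. The median of the 9 was 0.10, beside -0.00031 over all genes, and 5 of the 9 were above 0. Haemoglobin genes summed to 378 CPM under the Irf4-/- label and 1306 CPM under the WT label in Klre1-positive cells, and without the cells with markers of other types Dusp1 was at 0.59 (0.19 to 1.02). Mitochondrial UMIs were 3.96% under the Irf4-/- label and 3.53% under the WT label, and their part was not tested.

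Dusp1 was again the 1 gene of the 9 past log2 0.5 in gamma-delta T cells, where 7.72% of genes were at or above 0.5 and 5.54% at or below -0.5. Its level was 12.4 CPM in the library labelled Irf4-/- and 7.76 CPM in the library labelled WT, a log2 ratio of 0.67 (0.19 to 1.16). Among T cells with both Cd8b1 and Klre1 transcripts, 2 of the 9 (Nr4a1 and Dusp1) were at or above 0.5, beside 7.34% of genes, and none at or below -0.5, beside 5.03%. Among T cells with neither, none of the 9 passed 0.5 in either direction, beside 6.79% above and 4.79% below. T cells with both transcripts had 13.5 CPM of Dusp1 under the Irf4-/- label and 8.50 CPM under the WT label, log2 0.67 (0.31 to 1.05), whereas T cells with neither had 10.8 CPM under the Irf4-/- label and 11.6 CPM under the WT label, log2 -0.10 (-0.44 to 0.23). Over all T cells Dusp1 had 849 UMIs (11.9 CPM) under the Irf4-/- label and 715 UMIs (8.32 CPM) under the WT label, a log2 ratio of 0.52 (0.37 to 0.67). Its UMIs were spread over many cells: in the Cd8b1-positive class 148 cells held 180 UMIs under the Irf4-/- label and 296 cells held 329 UMIs under the WT label. Fos in gamma-delta T cells was lower in the library labelled Irf4-/-, at 17.5 CPM against 22.2 CPM under the WT label and log2 -0.34 (-0.68 to -0.0017), while Junb was higher, at 204 CPM against 176 CPM under the WT label and log2 0.21 (0.11 to 0.32). The median of the 9 was 0.02, beside 0.0017 over all genes. The 3 basophil and mast cell genes (Mcpt8, Cpa3 and Prss34) summed to 0.983 CPM under the Irf4-/- label and 230 CPM under the WT label in gamma-delta T cells, and the 4 haemoglobin genes to 10.4 CPM under the Irf4-/- label and 2027 CPM under the WT label, with none of either list at 0. Without the gamma-delta T cells (7 under the Irf4-/- label, 14 under the WT label) that had at least 3 UMIs of erythroid, myeloid, basophil or mast cell genes, the log2 ratios were 0.68 for Dusp1, -0.33 (-0.67 to 0.01) for Fos and 0.22 for Junb.

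**Figure D2:**
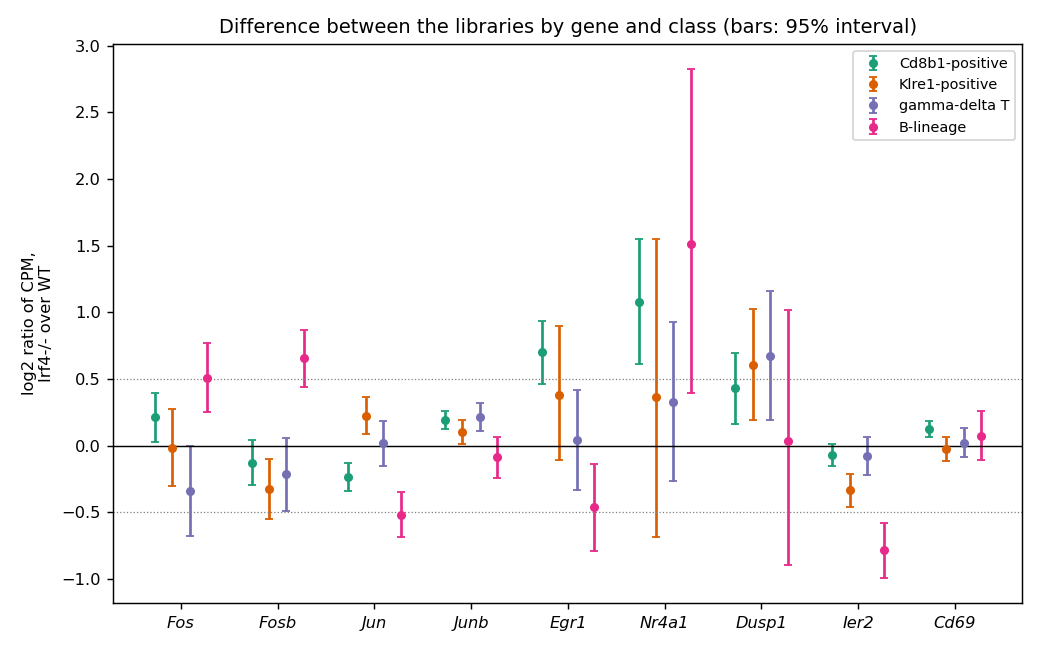
Log2 of the CPM in the library labelled Irf4-/- over that in the library labelled WT for each gene (horizontal axis) in 4 classes (colours), with 95% intervals of counting error as bars and dotted lines at 0.5 and -0.5. In B-lineage cells Fos and Fosb lie at 0.51 and 0.65 and Jun and Ier2 at -0.52 and -0.79, while Dusp1 lies between 0.43 and 0.67 in the 3 T cell classes.

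B-lineage cells showed the widest differences, in both directions. At or above log2 0.5 were 3 of the 9 genes (Fos, Fosb and Nr4a1), beside 13.2% of 10197 genes, and at or below -0.5 were 2 (Jun and Ier2), beside 8.47%. Fosb had 674 UMIs (114.5 CPM) in the library labelled Irf4-/- and 251 UMIs (72.7 CPM) in the library labelled WT, a log2 ratio of 0.65 (0.44 to 0.87), and Fos had 420 UMIs under the Irf4-/- label and 173 UMIs under the WT label and a log2 ratio of 0.51 (0.25 to 0.77). Jun, which can pair with either of them in AP-1, went the other way, with 637 UMIs (108 CPM) under the Irf4-/- label and 535 UMIs (155 CPM) under the WT label and a log2 ratio of -0.52 (-0.69 to -0.35). Ier2 had 393 UMIs (66.7 CPM) under the Irf4-/- label and 397 UMIs (115 CPM) under the WT label, a log2 ratio of -0.79 (-0.99 to -0.58). Nr4a1 rested on 39 UMIs under the Irf4-/- label and 8 UMIs under the WT label, with log2 1.51 (0.40 to 2.82). Egr1 was lower, at 30.1 CPM against 41.4 CPM under the WT label, with log2 -0.46 (-0.79 to -0.13). Junb and Cd69 differed by less than counting error, at log2 -0.09 for Junb and 0.07 for Cd69. The median of the 9, 0.04, was near the 0.03 of all genes, with genes in both directions.

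The B-lineage classes of the libraries differed in the stage genes detected. Progenitor genes (Vpreb1, Igll1, Dntt or Rag1, which act in or before assembly of the antigen receptor) were detected in 382 cells (36.8%) of the library labelled Irf4-/- and 92 cells (10.2%) of the library labelled WT. Ighd or Fcer2a, genes of mature B cells, marked 462 cells (44.5% of the class) under the Irf4-/- label and 540 cells (59.7%) under the WT label, all without progenitor genes, and 195 cells (18.8%) under the Irf4-/- label and 273 (30.2%) under the WT label had neither. Stage genes were read at full depth, with medians of 4155 UMIs under the Irf4-/- label and 2972 UMIs under the WT label. The part of depth in these shares was not tested. Fos and Fosb had ratios above 0 and Jun and Ier2 ratios below 0 in each of the 3 stages, though not each beyond counting error. For Fos the log2 ratios were 1.31 (119 UMIs under the Irf4-/- label, 9 under the WT label), 0.74 (0.41 to 1.09) and 0.52 (-0.01 to 1.06) in progenitor, Ighd or Fcer2a, and remaining cells, and for Fosb 1.29, 0.62 and 0.94. For Jun they were -1.14 (-1.44 to -0.83), -0.55 (-0.80 to -0.30) and -0.36 (-0.78 to 0.05), and for Ier2 -0.50 (-1.12 to 0.17), -0.68 (-0.94 to -0.41) and -0.21 (-0.67 to 0.23). Jun in progenitor cells had 122 CPM in the library labelled Irf4-/- and 268 CPM in the library labelled WT, its highest level in any group of B-lineage cells. Egr1 had 32 UMIs (12.9 CPM) in progenitor cells of the library labelled Irf4-/- and 0 in those of the library labelled WT, a count that allows up to 6.44 CPM at a floor of 3 UMIs over the group. With the 3 stages weighted alike in both libraries the log2 ratios were 0.79 for Fos, 0.83 for Fosb, -0.76 for Jun and -0.54 for Ier2, while that of Egr1 turned to 0.046. Within the stages where both libraries had Egr1 counts its ratios were -0.24 (-0.67 to 0.18) and 0.06 (-0.55 to 0.66).

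**Figure D3:**
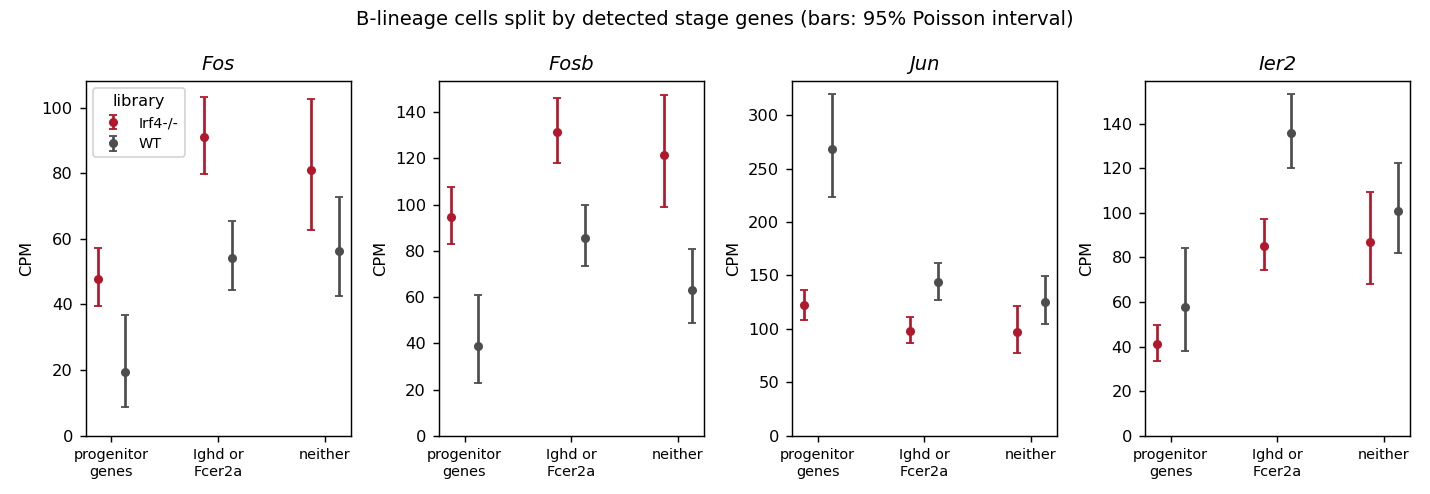
CPM of Fos, Fosb, Jun and Ier2 (vertical axes, from 0) in B-lineage cells with progenitor genes, with Ighd or Fcer2a, or with neither, for the library labelled Irf4-/- (red, left) and the library labelled WT (grey, right); bars are 95% Poisson intervals. Red points lie above grey ones for Fos and Fosb and below them for Jun and Ier2 in all 3 stages, with the widest gap in CPM, though not in ratio, for Jun in progenitor cells (122 CPM under the Irf4-/- label, 268 CPM under the WT label).

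Markers of other cells also differed between the B-lineage classes. Myeloid genes (S100a8, S100a9, Lyz2, Mpo and Elane) had 342 CPM in the library labelled Irf4-/- and 17.1 CPM in the library labelled WT, with Mpo and Elane at 0 there. All 4 haemoglobin genes were detected in both, at 17.5 CPM in sum under the Irf4-/- label and 3184 CPM under the WT label, and plasma cell genes had 56.7 CPM under the Irf4-/- label and 171 CPM under the WT label. In 7 B-lineage cells under the Irf4-/- label and 12 under the WT label there were at least 3 UMIs of erythroid, myeloid, basophil or mast cell genes. Without them the log2 ratios were 0.60 (0.33 to 0.87) for Fos, 0.70 (0.48 to 0.92) for Fosb, -0.49 (-0.66 to -0.32) for Jun, -0.78 (-0.99 to -0.58) for Ier2 and -0.32 (-0.65 to 0.02) for Egr1. Mitochondrial UMIs were 4.28% under the Irf4-/- label and 3.95% under the WT label in B-lineage cells, and heat shock genes had 3914 CPM under the Irf4-/- label and 3841 CPM under the WT label; their part in the result was not tested.

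Cells with several of the 9 genes were more frequent than the single shares multiply to. At 2000 UMIs per cell, 4 or more of the 9 were detected in 1.01% (0.579 to 1.64) of Cd8b1-positive cells of the library labelled Irf4-/- and 0.867% (0.637 to 1.15) of those of the library labelled WT, where the single shares multiply to 0.403% under the Irf4-/- label and 0.316% under the WT label. Under the Irf4-/- label the share was 2.01% in Klre1-positive, 1.96% in gamma-delta T and 4.11% (2.97 to 5.51) in B-lineage cells, and under the WT label it was 1.91% in Klre1-positive, 1.27% in gamma-delta T and 2.41% (1.50 to 3.67) in B-lineage cells. No member was detected in 41.8% of Cd8b1-positive, 33.6% of Klre1-positive, 31.0% of gamma-delta T and 34.4% of B-lineage cells under the Irf4-/- label, and in 42.6% of Cd8b1-positive, 34.2% of Klre1-positive, 39.2% of gamma-delta T and 32.6% of B-lineage cells under the WT label. The random draw of UMIs mattered for these small shares. Over 20 other draws the B-lineage share averaged 3.81% (lowest 3.32, highest 4.50) under the Irf4-/- label and 3.61% (2.87 to 4.37) under the WT label, so that the libraries overlapped. The Klre1-positive share averaged 1.52% under the Irf4-/- label and 1.60% under the WT label, the opposite order to the single draw, and the gamma-delta share 1.71% under the Irf4-/- label and 1.50% under the WT label, both with overlapping draws. The Cd8b1-positive share averaged 0.869% under the Irf4-/- label and 0.824% under the WT label. The B-lineage class was above the Cd8b1-positive class in every one of these draws in both libraries. The observed shares were between 1.89 and 2.63 times those from single shares, by mean over draws, over the 4 classes and 2 libraries.

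**Figure D4:**
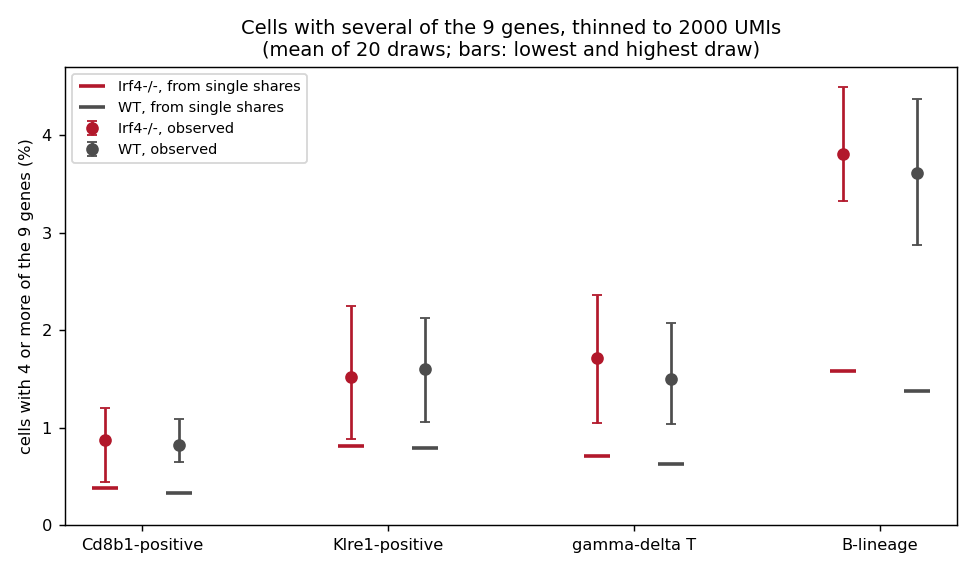
Percent of cells with at least 4 of the 9 genes after thinning to 2000 UMIs, by class, for the library labelled Irf4-/- (red, left) and the library labelled WT (grey, right); points are means of 20 random draws, bars the lowest and highest draw, and horizontal dashes the percent that single shares multiply to. Every point lies above its dash, and B-lineage cells are highest, at 3.81% under the Irf4-/- label and 3.61% under the WT label.

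Pairs of genes were detected together only a little more often than their shares multiply to. Of 36 pairs, 29 were above the product in Cd8b1-positive, 25 in Klre1-positive, 22 in gamma-delta T and 26 in B-lineage cells under the Irf4-/- label, and 29, 22, 31 and 23 in the same classes under the WT label. The median phi coefficient, the correlation of 2 yes-or-no detections over cells, lay between 0.010 and 0.042 over these 8 sets. In sparse counts such values are no finding by themselves. Egr1 and Ier2 in B-lineage cells had phi of 0.184 under the Irf4-/- label (17 cells positive for both) and 0.177 under the WT label (19 cells). Junb and Cd69 in Klre1-positive cells had 0.078 under the Irf4-/- label (185 cells) and 0.088 under the WT label (106 cells). Fos and Fosb were together in 11 Klre1-positive cells under the Irf4-/- label, 2.73 times the product, and in 8 under the WT label, 3.46 times the product. Of 3487 other genes considered, Jund, an AP-1 subunit, had the highest correlation with the number of the 9 genes detected per cell. Its lowest Pearson r over the 4 sets of Cd8b1-positive and Klre1-positive cells was 0.057. Zfp36l1 and Xcl1 followed at 0.041 and Nfkbia at 0.040, and the last of the 12 that were ranked, Fam162a, had 0.025, so no gene tracked the group closely at this depth.

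Egr1 with Nr4a1 was also counted at full depth and over all T cells, which was not done for the other pairs. The full-depth ratios of this pair are therefore not set against theirs. At full depth, 47 of 6573 T cells (0.715%, 0.526 to 0.950) of the library labelled Irf4-/- and 36 of 10999 (0.327%, 0.229 to 0.453) of the library labelled WT had UMIs of both, 7.66 times what the single shares give under the Irf4-/- label and 6.74 times under the WT label. After thinning, 7 of 6570 T cells (0.107%) under the Irf4-/- label and 8 of 10979 (0.0729%) under the WT label did, too few to compare the libraries. By class the 47 cells under the Irf4-/- label were 10 Cd8b1-positive, 8 Klre1-positive, 10 with both transcripts, 7 gamma-delta and 12 other T cells. The 36 under the WT label were 14 Cd8b1-positive, 0 Klre1-positive, 1 with both transcripts, 11 gamma-delta and 10 other T cells, and the 0 among 943 Klre1-positive cells allows a share of up to 0.318%. These cells held 37.9% of the Egr1 UMIs and 63.3% of the Nr4a1 UMIs of all T cells under the Irf4-/- label, and 19.5% of the Egr1 UMIs and 42.5% of the Nr4a1 UMIs under the WT label. Their median depth was 12156 UMIs against 9875 UMIs in other T cells under the Irf4-/- label, and 7952 UMIs against 7242 UMIs in other T cells under the WT label. Their median mitochondrial share was 3.60% against 3.90% in other T cells under the Irf4-/- label, and 3.16% against 3.46% in other T cells under the WT label. Heat shock genes were higher in them, at 5019 CPM against 3837 CPM in other T cells under the Irf4-/- label (log2 0.39, 0.34 to 0.44). Under the WT label these genes had 4838 CPM against 3935 CPM in other T cells (log2 0.30, 0.23 to 0.37). The part of handling in these cells was not tested.

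Other genes of the EGR and NR4A families were far above the level of other T cells in these cells. The cells were chosen by Egr1 and Nr4a1 after values were seen, so the following levels are descriptions. Egr3, a zinc-finger factor of T cell activation, had 341 CPM in them against 3.25 CPM in other T cells under the Irf4-/- label, and 264 CPM against 4.38 CPM in other T cells under the WT label. Egr2, its paralog, had 105.5 CPM against 1.71 CPM in other T cells under the Irf4-/- label, and 101 CPM against 1.47 CPM in other T cells under the WT label. The nuclear receptor gene Nr4a2 had 148 CPM against 4.79 CPM in other T cells under the Irf4-/- label, and 258 CPM against 3.98 CPM in other T cells under the WT label. Egr3 and Egr2 were spread over cells: under the Irf4-/- label 38 of the 47 cells had an Egr3 UMI and 23 an Egr2 UMI, and under the WT label 22 of the 36 had an Egr3 UMI and 16 an Egr2 UMI. Nr4a2 was in 21 of the 47 cells under the Irf4-/- label and in 9 of the 36 under the WT label. Nr4a3, the other NR4A gene, had 81.1 CPM against 2.75 CPM in other T cells under the Irf4-/- label, and 92.0 CPM against 2.20 CPM in other T cells under the WT label. Irf4, which T cells induce on antigen receptor signals, had 16.8 CPM (11 UMIs in 8 cells) against 2.51 CPM in other T cells under the Irf4-/- label, and 24.5 CPM (8 UMIs in 4 cells) against 0.981 CPM in other T cells under the WT label.

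The remaining members of the 9 did not behave alike in these cells. Fos had 109 CPM against 19.3 CPM in other T cells under the Irf4-/- label, and 104 CPM against 18.7 CPM in other T cells under the WT label. Ier2 had 265 CPM against 91.0 CPM in other T cells under the Irf4-/- label, and 316 CPM against 100.5 CPM in other T cells under the WT label. Cd69 had 425 CPM against 178 CPM in other T cells under the Irf4-/- label, and 518 CPM against 163 CPM in other T cells under the WT label. Junb had 286 CPM against 183 CPM in other T cells under the Irf4-/- label (log2 0.64, 0.43 to 0.85), and 343 CPM against 152 CPM in other T cells under the WT label (1.18, 0.90 to 1.45). Jun, in contrast to these 4, was not higher. It had 41.3 CPM against 74.6 CPM in other T cells under the Irf4-/- label (log2 -0.85, -1.46 to -0.31), and 70.5 CPM against 69.7 CPM in other T cells under the WT label. Dusp1 rested on 11 UMIs under the Irf4-/- label and 1 UMI under the WT label in these cells, and Fosb on 22 UMIs under the Irf4-/- label and 19 under the WT label. Zfp36l1, which encodes an RNA-binding protein that speeds decay of AU-rich transcripts, had 502 CPM against 129 CPM in other T cells under the Irf4-/- label, and 408 CPM against 133 CPM in other T cells under the WT label. Klf2, a factor of quiescent T cells, was lower, at 265 CPM against 392 CPM in other T cells under the Irf4-/- label, and 399 CPM against 493 CPM in other T cells under the WT label.

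**Figure D5:**
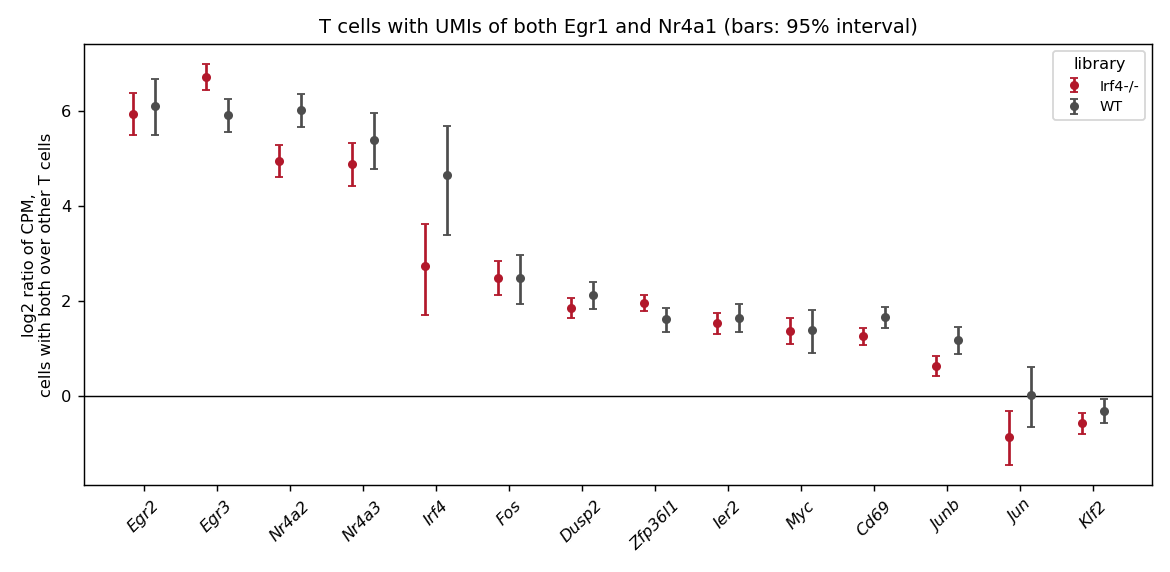
Log2 ratio of CPM for 14 genes chosen after seeing values, in T cells with UMIs of both Egr1 and Nr4a1 (47 cells of the library labelled Irf4-/-, 36 of the library labelled WT) over the other T cells of the same library, by gene; red at the left is the library labelled Irf4-/-, grey at the right the library labelled WT, and bars are 95% intervals of counting error. Egr2, Egr3, Nr4a2 and Nr4a3 lie highest, and Jun (-0.85 under the Irf4-/- label, 0.02 under the WT label) and Klf2 (-0.57 under the Irf4-/- label, -0.31 under the WT label) are the lowest of the genes drawn.

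Over all kept cells 2 of the 9 members (Nr4a1 and Dusp1) were at or above log2 0.5, beside 12.2% of 14117 genes, and none at or below -0.5, beside 4.97%. Related genes were counted over all T cells, where 2 of the 9 members (Nr4a1 and Dusp1) were at or above log2 0.5, beside 8.23% of 13329 genes, and none at or below -0.5, beside 5.81%. Of 40 other immediate-early genes, 37 had at least 20 UMIs; 5 were at or above 0.5 and 2 at or below -0.5, with a median of 0.22, beside 0.13 for the 9 members and 0.01 for all genes. The mix of classes in this sum differed, with 1584 Cd8b1-positive of 6573 T cells under the Irf4-/- label and 5430 of 10999 under the WT label. Within classes the median of these other genes was 0.13 in Cd8b1-positive, 0.05 in Klre1-positive, 0.07 in gamma-delta T and 0.02 in B-lineage cells. Bhlhe40, a helix-loop-helix repressor, had 10.1 CPM in the library labelled Irf4-/- and 3.48 CPM in the library labelled WT, a log2 ratio of 1.54 (1.35 to 1.74). Dusp4, another MAP kinase phosphatase, gave 0.82 (0.32 to 1.32), Egr2 gave 0.53 (0.22 to 0.84), and Ier3 was lower at -0.58 (-0.76 to -0.41). None of the 26 genes of the signalling chain upstream (kinases, Ras proteins, SRF and its partners, NFAT) passed log2 0.5 in either direction, and the median of their ratios was 0.0030. Mapk3, which encodes the kinase ERK1, had 0.29 (0.18 to 0.40), Srf 0.31 (0.15 to 0.47), Mapk9 0.23 (0.11 to 0.34) and Sos1, an activator of Ras, -0.29 (-0.40 to -0.18). Of the 11 AP-1 partner genes 9 had at least 20 UMIs, with 1 at or above 0.5, 1 at or below -0.5 and a median of -0.06. Maf, a bZIP factor of effector T cells, had 1.29 CPM under the Irf4-/- label and 7.84 CPM under the WT label, log2 -2.60 (-2.93 to -2.29), and Jdp2, a repressor of AP-1, had 6.88 CPM under the Irf4-/- label and 4.51 CPM under the WT label, log2 0.61 (0.41 to 0.80). Fosl2 gave 0.45 (0.29 to 0.61) and Bach2, a repressor that holds T cells in a naive state, -0.28 (-0.36 to -0.19). Of 10 heat shock genes, which also respond to handling, 9 had at least 20 UMIs and none was at or above 0.5. Their median was -0.07, with 1 at or below -0.5. Dnaja1 was at -0.36 (-0.38 to -0.33), Dnajb1 at -0.34 (-0.41 to -0.26), Hsph1 at -0.13 (-0.21 to -0.06) and Hspa1b, on 9 UMIs under the Irf4-/- label and 23 under the WT label, at -1.08 (-2.38 to 0.08). Mitochondrial UMIs were 3.89% under the Irf4-/- label and 3.48% under the WT label in all T cells, and their part in these ratios was not tested.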

How the data were processed

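Single-cell RNA was measured in 2 libraries, 1 labelled Irf4-/- and 1 labelled WT, grouped by title. The authors deposited raw UMI counts for each gene in each cell barcode, from Cell Ranger 6.1.1 per the file headers. The build is mm10, per the submitters' processing notes, and no release of the gene annotation is given in the sources used here. These tables hold called cells, so the authors' cell calling bears on every share. Barcodes with at least 500 genes, at least 1000 UMIs and under 10% mitochondrial UMIs were kept.

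T cells had at least 3 UMIs of Cd3d, Cd3e and Cd3g and at most 1 of Cd79a and Cd79b; B-lineage cells had the converse; gamma-delta T cells had at least 2 Trdc UMIs and more than Trac. Cells that met neither definition (343 in the library labelled Irf4-/-, 463 in that labelled WT), among them possible doublets of B and T cells, were left out, and no doublet caller was run. Counts were summed per library and class and divided by all UMIs of the class (CPM). Sums have exact Poisson intervals, shares exact Clopper-Pearson intervals and ratios exact conditional binomial intervals, all at 95%. Depth per library limits counts under about 20 UMIs, and genes below that in both libraries together were left out of counts of genes. Thinning drew 2000 UMIs per cell without replacement. With 1 library per genotype no test and no p-value was computed.

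The text names the 9 members, up to 4 genes of each related list with the largest absolute ratio over all T cells, and the 12 genes ranked by likeness. The 9 members and the lists were chosen with earlier results of these data known. The split of B-lineage cells by Ighd and Fcer2a, that of Cd8b1-positive cells by Ccr7, and the cells with both Egr1 and Nr4a1 were chosen after seeing values. Python 3.11.15, numpy 2.4.6, scipy 1.17.1, pandas 2.3.3 and matplotlib 3.10.9 were used. The interval of a ratio was tested on simulated sums with independent UMIs. That test does not cover genes whose UMIs lie in a few cells. Alternatives were other cell filters, class limits, depths, numbers of genes per cell and scalings, and leaving out the deepest cells, single cells, progenitor cells or cells with other markers. Gene coordinates are from GENCODE M21 (GRCm38) and upstream windows from RefSeq.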

Additional observations from a re-analysis of the deposited data

Results flagged for a closer look

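Some genes differed between the libraries in opposite directions in different cell classes, each beyond counting error with all cells and the main class limits, and with 1 library per genotype these differences between classes were not tested. Fos had a log2 ratio, library labelled Irf4-/- over library labelled WT, of 0.51 in B-lineage cells and 0.21 in Cd8b1-positive cells, but -0.34 in gamma-delta T cells. Fosb had 0.65 in B-lineage cells and -0.33 in Klre1-positive cells. Jun had 0.23 in Klre1-positive cells, -0.23 in Cd8b1-positive cells and -0.52 in B-lineage cells. Egr1 had 0.70 in Cd8b1-positive cells and -0.46 in B-lineage cells. Some of these values were within counting error under other choices. Fos in Cd8b1-positive cells was 0.17 (-0.02 to 0.35) without the highest cell of each library. At equal depth Fos was detected in 2.84% of Cd8b1-positive cells under the Irf4-/- label and 2.99% under the WT label. Fos in gamma-delta T cells was -0.24 (-0.62 to 0.13) without the deepest 5% of cells and -0.33 (-0.67 to 0.01) without cells with markers of other types. Egr1 in B-lineage cells was -0.17 (-0.51 to 0.17) without progenitor cells. Jun in Cd8b1-positive cells was -0.07 (-0.15 to 0.0032) with classes that share cells.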

How the results depend on the processing

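No paired analysis was possible because there was 1 library per genotype and no replicate number. Of 251 recomputed log2 ratios of single genes by class, 232 moved by less than their counting error, 18 moved by more and 1 reversed: Egr1 in B-lineage cells at 0.046 with stages weighted alike, a weighting chosen after seeing the data. A reversal was counted only where the interval with all cells and the main class limits excluded 0, which held for 150 of the 251. Any other change of sign was counted among the 232 or the 18. The choices to leave out the highest cell, to repeat the random draw, and to leave out cells with other markers were also made after seeing the data. Raising the limits of the classes gave Dusp1 in Klre1-positive cells a ratio of 1.24, and without the deepest 5% of cells Egr1 in gamma-delta T cells was -0.42, against 0.05 with all cells. The log2 ratio of the share of cells with at least 4 of the 9 genes was less stable. It was -1.03 in Cd8b1-positive cells and -0.66 in B-lineage cells at 1000 UMIs, -1.06 in gamma-delta T cells with classes read after thinning and -0.87 there with at least 5 genes, and -0.046 in B-lineage cells with no cell filter; the cause was not tested. The medians of the 9 genes stayed within their intervals under all alternatives run. Those intervals are taken from the ranked ratios of the 9 genes, such as -0.52 to 0.65 in B-lineage cells. They cover the spread between genes and not counting error, and are too wide to show that the medians are stable. Depth limits Nr4a1 and Dusp1, with under 50 UMIs in some classes, and Egr1, with 45 UMIs in Klre1-positive cells under the WT label. No alternative stands in for a second library per genotype.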
